A study of Rattus norvegicus with 10 samples.

Results

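B cell and plasma cell markers were followed in rat liver after sulfur mustard, an alkylating blister agent, abbreviated SM. The list held 8 genes, Cd79a, Cd79b, Ms4a1, Blnk, Cd22, Pou2af1, Mzb1 and Jchain, and a probe belonged to it where its accession pointed to 1 of these symbols in RefSeq. Of the 8 genes, 5 had a probe, among 13837 named genes with a probe, which gave 7 of the 41012 probes on the array, and 6 of these were among the 22991 probes tested. Cd79a, Ms4a1 and Jchain are named only.

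One-colour Agilent Whole Rat Genome arrays, 1 per sample, were hybridized with liver RNA of male Sprague Dawley rats. The 3 control samples came from rats given the solvent, propylene glycol, in equal volume. The 4 SM samples came from rats given a single subcutaneous dose of SM at 3.5 mg/kg. The 3 SM + MSTF samples came from rats that had SM at that dose and, 1 h later, 120 mg/kg of MSTF into the stomach, a mixture of salvianolic acids and total flavonoids from medicinal plants. All livers were taken at 24 h, and the replicates are separate samples by their labels, so p-values measure the spread between these samples.

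B cells sense antigen through a membrane immunoglobulin that signals by way of the CD79 pair, and the adaptor encoded by Blnk links that signal to the kinases and lipases downstream. Cd22 encodes an inhibitory receptor that restrains the same signal, and Pou2af1 encodes a coactivator that works with octamer-binding factors at B cell promoters. Plasma cells, the antibody-secreting descendants of B cells, use Mzb1 as an endoplasmic reticulum chaperone factor for antibody assembly and Jchain as the joining chain of polymeric antibodies. The liver holds few of these cells beside its hepatocytes, Kupffer cells and natural killer cells. In bulk tissue, fewer cells of a type and less RNA per cell cannot be told apart.

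The octamer that Pou2af1's partner factors bind, ATGCAAAT, was searched on both strands in the promoters of the measured members, from 250 bases before to 50 bases after the gene start (RefSeq, assembly GRCr8). Of all 33469 promoters of this length in the table, 595 (1.78%) held it on either strand. Promoters of 2 measured members, Blnk and Cd22, were in the table. They are shown because both genes act on the B cell receptor signal and only these measured members had an entry. The promoter window of Blnk, a gene on the minus strand, is chr1:249770484-249770783. This window held 1 octamer, in capitals, on the strand opposite to the gene (it reads ATTTGCAT along the gene), 189 to 182 bases before the start. The promoter window of Cd22, also on the minus strand, is chr1:95259681-95259980. These letters are not in it, and it is therefore printed with no capitals. A match is a description of letters and was not tested as a binding site.
Blnk: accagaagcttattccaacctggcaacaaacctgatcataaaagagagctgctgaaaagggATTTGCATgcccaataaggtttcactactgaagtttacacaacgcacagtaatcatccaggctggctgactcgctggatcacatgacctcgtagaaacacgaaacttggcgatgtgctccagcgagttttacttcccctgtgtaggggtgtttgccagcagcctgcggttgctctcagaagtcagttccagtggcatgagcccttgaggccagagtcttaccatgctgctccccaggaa
Cd22: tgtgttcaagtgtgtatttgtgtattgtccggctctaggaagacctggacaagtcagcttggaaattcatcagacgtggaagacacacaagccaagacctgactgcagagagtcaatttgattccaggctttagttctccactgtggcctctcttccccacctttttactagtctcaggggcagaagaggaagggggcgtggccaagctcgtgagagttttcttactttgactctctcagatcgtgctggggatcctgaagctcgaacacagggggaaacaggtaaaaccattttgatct

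On the 10 arrays 51.9% to 61.4% of probes lay well above background, the median ratio of signal to background was 2.20 to 2.54, and 0 spots were saturated. The 3 controls shared slide 1 with SM + MSTF replicate 3, the 4 SM arrays filled slide 2, and SM + MSTF replicates 1 and 2 lay on slide 3, so SM and slide 2 cannot be told apart. Hepatocyte genes (Alb, Ttr, Apoa1 and the others of a list of 10) had a mean log2 signal of 16.2 to 16.6 on every array. Values below are log2 of the quantile normalized, background-subtracted signal of a probe, and levels are not compared between probes.

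Cd79b gave the largest fitted difference of the member list after SM. This gene encodes the signalling chain that pairs with CD79A under the membrane immunoglobulin. Its probe (A_43_P15598) read 6.42, 6.65 and 6.02 in control replicates 1 to 3. In SM replicates 1 to 4 it read 3.57, 4.28, 5.04 and 3.84. In SM + MSTF replicates 1 to 3 it read 5.63, 3.09 and 6.21. The highest SM array lay below the lowest control, while SM + MSTF spread from below every SM array to the level of the controls. The probe was well above background on 3 of 3 control arrays, 2 of 4 SM arrays and 2 of 3 SM + MSTF arrays. The SD was 0.32 in control (n = 3), 0.64 in SM (n = 4) and 1.66 in SM + MSTF (n = 3).

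In SM versus control, Cd79b differed by -2.18 on the log2 scale (SE 0.65, 95% interval -3.65 to -0.72), a signal 4.54-fold lower. With limma over all 22991 probes and Benjamini-Hochberg adjustment, the adjusted p was 0.125, so the probe was not called changed (adjusted p under 0.05 and at least 1.5-fold), and the unadjusted p was 0.00797. The call changed with the arrays in the fit. With the 2 groups alone in the fit the adjusted p by limma was 0.0145, and without SM + MSTF replicate 2, the array on which Cd79b read 3.09, it was 0.0217. With normexp background correction the difference was -0.64 (limma, adjusted p = 0.0824).

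Against control, Cd79b in SM + MSTF differed by -1.39 (SE 0.70, 95% interval -2.95 to 0.18, limma adjusted p = 0.564). Against SM it differed by 0.79 (SE 0.65, 95% interval -0.67 to 2.26, limma adjusted p = 0.560). Both values rested on single arrays. Without SM + MSTF replicate 2 they were -0.45 and 1.74, and without SM + MSTF replicate 3 they were -2.01 and 0.18. With slide entered as a fixed block, a fit that sets SM + MSTF replicate 3 against the controls on its own slide, the difference from control was -0.15.

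**Figure D1:**
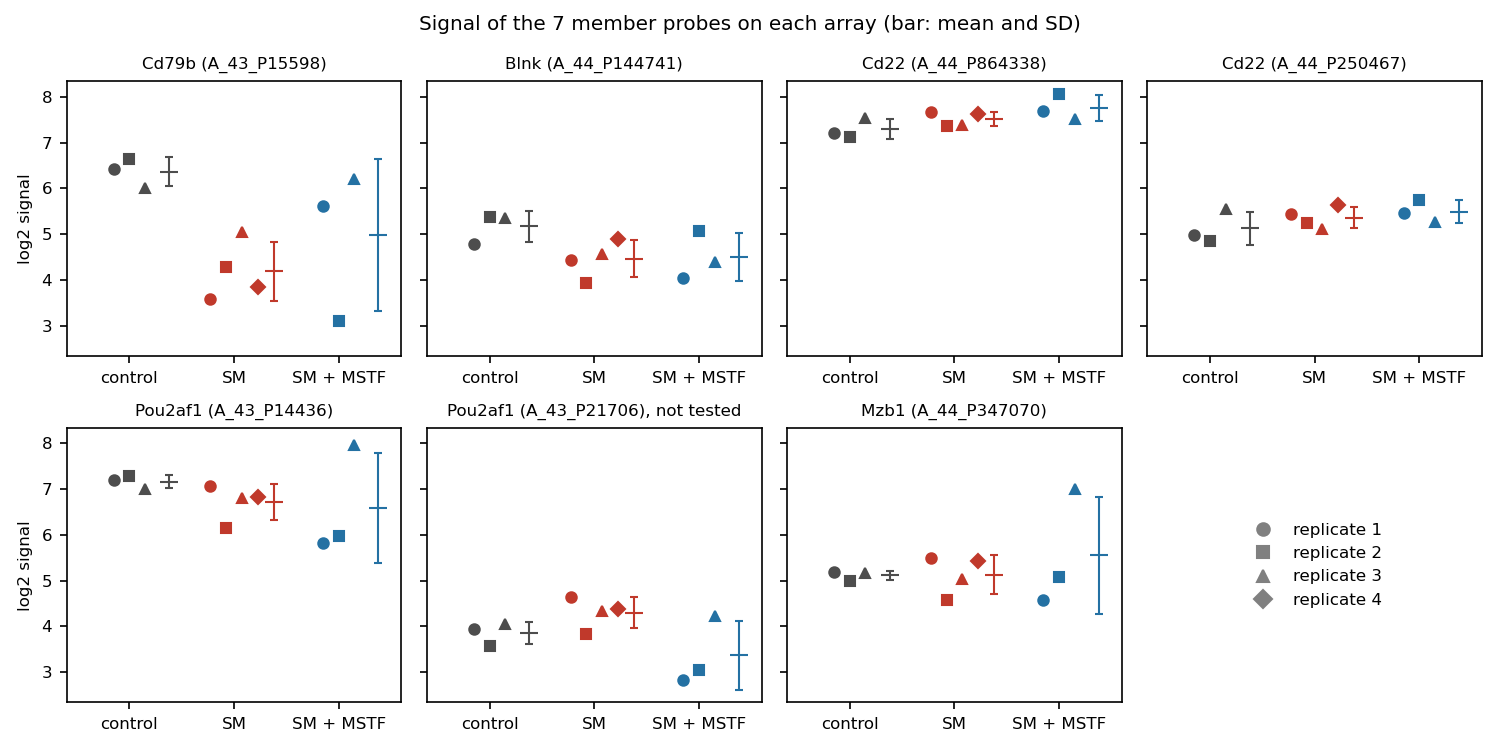
Log2 signal (vertical axis, shared) of the 7 probes of the member list on each of the 10 arrays, by group on the horizontal axis, with the mean and SD of each group as a bar beside its points. Cd79b read 6.02 to 6.65 in control and 3.57 to 5.04 in SM, and SM + MSTF replicate 3 was the highest array for Mzb1 (7.01) and for the tested Pou2af1 probe (7.97).

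Blnk, the B cell linker that carries the receptor signal inward, differed in the same direction as Cd79b with a smaller size. Its probe (A_44_P144741) read 4.78, 5.38 and 5.36 in control, 4.43, 3.93, 4.57 and 4.90 in SM, and 4.04, 5.07 and 4.38 in SM + MSTF. The highest SM array lay above the lowest control, so the groups overlapped, as did SM + MSTF and control. The probe was well above background on 3 of 3 control, 3 of 4 SM and 1 of 3 SM + MSTF arrays. Its log2 difference in SM versus control was -0.72 (SE 0.29, 95% interval -1.36 to -0.073, unadjusted p = 0.0326, limma adjusted p = 0.249). With normexp background correction it was -0.23. The SM + MSTF group differed from control by -0.68 (SE 0.31, limma adjusted p = 0.530), and from SM by 0.039 (95% interval -0.60 to 0.68, limma adjusted p = 0.956).

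Cd22, which recruits phosphatases that damp the receptor signal, did not follow Cd79b. Its brighter probe (A_44_P864338) read 7.21, 7.12 and 7.54 in control, 7.67, 7.37, 7.39 and 7.63 in SM, and 7.68, 8.06 and 7.53 in SM + MSTF. Its second probe (A_44_P250467) read 4.98, 4.85 and 5.54 in control, 5.43, 5.24, 5.12 and 5.64 in SM, and 5.46, 5.75 and 5.27 in SM + MSTF. On both probes the groups overlapped and the fitted means of both treated groups lay above control. The brighter probe was well above background on all 10 arrays, and the second on 2 of 3 control arrays and on every array of the other groups. The second probe thus entered the test only through the treated groups, where its mean was higher. Its direction against control was partly built into its selection and is no separate support for the brighter probe. Between SM and control the log2 difference was 0.22 (SE 0.16, 95% interval -0.13 to 0.58, limma adjusted p = 0.541) on the brighter probe and 0.23 (SE 0.20) on the second. Between SM + MSTF and control the brighter probe differed by 0.47 (SE 0.17, 95% interval 0.087 to 0.84, unadjusted p = 0.0210, limma adjusted p = 0.458) and the second by 0.37 (SE 0.21). Between SM + MSTF and SM the differences were 0.24 and 0.14, with standard errors of 0.16 and 0.20. These sizes shifted with the setting. With an array left out, the difference between SM and control ran from 0.14 to 0.35 on the brighter probe and from 0.095 to 0.44 on the second, which gave 0.035 with normexp correction. On the brighter probe the slide block gave 0.23 between SM + MSTF and control, with SM + MSTF replicate 3 alone set against the controls. In the same comparison normexp gave 0.053 on the second probe. SM + MSTF replicate 2, the array with the lowest Cd79b signal of all 10, had the highest Cd22 signal on both probes.

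Pou2af1, the octamer coactivator, had its widest spread among the SM + MSTF samples. Its tested probe (A_43_P14436) read 7.20, 7.28 and 7.001 in control, 7.07, 6.15, 6.80 and 6.83 in SM, and 5.81, 5.97 and 7.97 in SM + MSTF. Of all 10 arrays, SM + MSTF replicates 1 and 2 were the lowest and SM + MSTF replicate 3 was the highest. The SD was 0.14 in control (n = 3), 0.39 in SM (n = 4) and 1.20 in SM + MSTF (n = 3). Its log2 difference in SM versus control was -0.45 (SE 0.46, 95% interval -1.48 to 0.59, limma adjusted p = 0.685). Between SM + MSTF and control it was -0.58 (SE 0.49, limma adjusted p = 0.736), and without SM + MSTF replicate 3 it was -1.27 (limma, adjusted p = 0.0510). With the slide as a fixed block the same difference turned to 0.81. That fit sets SM + MSTF replicate 3 alone, the array already seen to be highest, against the controls on its slide. Between SM + MSTF and SM it was -0.13 (SE 0.46, limma adjusted p = 0.905).

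The second Pou2af1 probe (A_43_P21706) was not tested, because in no group was it well above background on every array. It read 3.95, 3.57 and 4.04 in control, 4.65, 3.84, 4.33 and 4.38 in SM, and 2.83, 3.03 and 4.23 in SM + MSTF. As on the tested probe, SM + MSTF replicates 1 and 2 were the lowest of all arrays. It was well above background on 0 of 3 control, 3 of 4 SM and 1 of 3 SM + MSTF arrays.

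Mzb1, the chaperone factor of antibody-secreting cells, was high on 1 array. Its probe (A_44_P347070) read 5.19, 4.995 and 5.16 in control, 5.50, 4.59, 5.02 and 5.42 in SM, and 4.57, 5.08 and 7.01 in SM + MSTF. Apart from SM + MSTF replicate 3, every array lay between 4.57 and 5.50. The probe was well above background on 2 of 3 control, 4 of 4 SM and 2 of 3 SM + MSTF arrays. Its log2 difference in SM versus control was 0.018 (SE 0.49, 95% interval -1.08 to 1.12, limma adjusted p = 0.991). From control, SM + MSTF differed by 0.44 (SE 0.52, limma adjusted p = 0.816), and from SM by 0.42 (SE 0.49, limma adjusted p = 0.691). Without SM + MSTF replicate 3 both turned in sign, to -0.29 and -0.31. With the slide as a fixed block, the difference from control was 1.90 (limma, adjusted p = 0.0408), but that fit sets SM + MSTF replicate 3 alone, the array already seen to be high, against the 3 controls on slide 1, takes the spread from the other arrays and so is no replicated test.

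Cd79b and Blnk entered the test only through the control arrays, the group in which they were high. A lower signal in the other groups was built into their selection. The second Cd22 probe entered only through the treated groups, where its mean was higher, and Mzb1 only through the SM arrays. The counts and medians below describe the 6 probes and support nothing. Over the list, 0 of the 6 tested member probes were called in SM versus control by limma, where 2.41% of all tested probes were. At an unadjusted p under 0.05 there were 2 of 6, Cd79b and Blnk, beside 16.4% of all probes. The groups did not overlap for 1 of 6, Cd79b, beside 18% of all probes. Of the 6 probes 3 were fitted lower, beside 44.1% of all probes, and their median log2 difference was -0.21 beside 0.032 over all probes. For SM + MSTF against control, 0 of 6 were called by limma, as were 0% of all probes, 1 of 6 had an unadjusted p under 0.05 (Cd22, beside 9.54%), 0 did not overlap (beside 15.4%) and 3 were fitted lower (beside 49.1%). For SM + MSTF against SM, 0 of 6 were called by limma, beside 1.26% of all probes, 0 had an unadjusted p under 0.05 (beside 15.9%), 0 did not overlap (beside 14.7%) and 1 was fitted lower (beside 53.6%). The medians of these comparisons were -0.11 and 0.19, beside 0.0046 and -0.022 over all probes. The standard errors of the 6 probes in SM versus control ran from 0.16 to 0.65, beside a median of 0.15 over all probes. The comparisons share arrays, so their values for a member are given side by side and not as independent results.

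**Figure D2:**
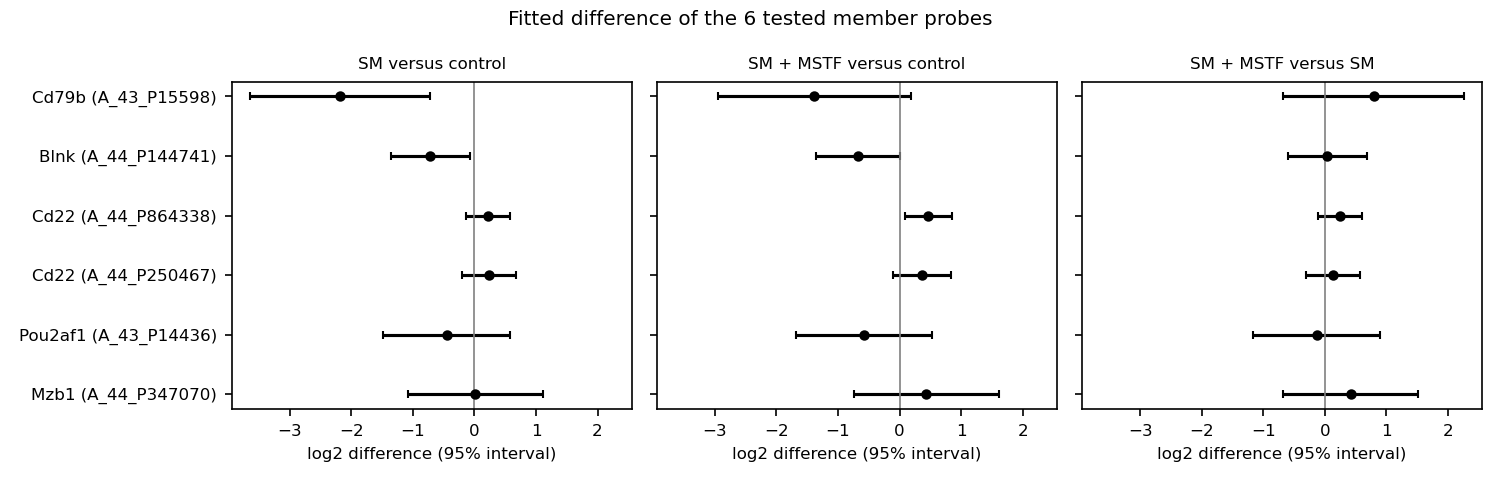
Fitted log2 difference (horizontal axis) of the 6 tested member probes in the comparisons of SM with control (left), SM + MSTF with control (middle) and SM + MSTF with SM (right), with the 95% interval as a bar. In SM versus control the intervals of Cd79b (-3.65 to -0.72) and Blnk (-1.36 to -0.073) lie below 0, and in SM + MSTF versus SM every interval includes 0.

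Arrays differed in how the members lay among themselves. Within SM, replicate 2 had the lowest value for Blnk, the brighter Cd22 probe, both Pou2af1 probes and Mzb1, whereas the lowest Cd79b value was that of replicate 1. Within SM + MSTF, replicate 3 had the highest Cd79b, Pou2af1 and Mzb1 values and the lowest Cd22 value on both probes. No SM + MSTF array was at the same end for every member.

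Beyond the members, 83 genes of B cell receptor signalling, B cell surface and transcription factors, plasma cell and secretory function, immunoglobulins and B cell precursors were listed. Of these 53 matched a probe and 34 were tested, with 1 probe per gene. Of the 17 immunoglobulin genes listed 0 matched, so the counts that follow do not cover them. None of the 44 tested probes of these lists was called by limma in any comparison (0 in each). The share of all tested probes that limma called was 2.41% between SM and control and 1.26% between SM + MSTF and SM. It was 0% between SM + MSTF and control. At such shares few or no calls fall among 44 probes, so the 0 does not set B lineage genes apart. In SM versus control 24 of 34 genes were fitted lower, beside 44.1% of all probes, with a median log2 difference of -0.12. By limma 1 gene passed an unadjusted p under 0.05 at 1.5-fold, beside 5.61% of all probes. Between SM + MSTF and control 15 of 34 genes were fitted lower, beside 49.1% of all probes, with a median of 0.051. There 1 gene passed that unadjusted rule, beside 3.01% of all probes. Between SM + MSTF and SM 16 of 34 were fitted lower, beside 53.6% of all probes, with a median of 0.036. Of the 34 genes 7 passed the unadjusted rule, beside 5.36% of all probes. Pik3cd, Vpreb3, Il7r, Ly86, Btk and Herpud1 were higher in SM + MSTF, and Ccr7 was lower (-1.18). Ccr7 was well above background on 4 of 4 SM arrays and on 0 arrays of the other groups. Its higher signal in SM was thus built into its selection. Genes of the lists that were not well above background on any of the 10 arrays included the transcription factor genes Ikzf3, Bcl11a and Irf4, the follicle homing receptor gene Cxcr5, and the precursor genes Igll1, Rag1, Rag2 and Dntt.

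Among surface genes, Fcmr, which encodes the Fc receptor for IgM, was nearest to a call. It read 7.77, 7.82 and 7.54 in control, 5.86, 6.48, 6.88 and 6.09 in SM, and 5.61, 6.99 and 5.95 in SM + MSTF. Every treated array lay below every control. Its log2 difference in SM versus control was -1.38 (SE 0.33, 95% interval -2.12 to -0.65, limma adjusted p = 0.0598), a signal 2.61-fold lower. SM + MSTF differed from control by -1.53 (SE 0.35, unadjusted p = 0.00159, limma adjusted p = 0.382) and from SM by -0.14 (SE 0.33, limma adjusted p = 0.853). The adjusted p in SM versus control passed the threshold by limma with the 2 groups alone in the fit (0.0198), with normexp correction (-0.90, 0.0379), and without SM + MSTF replicate 1 (0.0488) or replicate 2 (0.0240). Cd40, the receptor for T cell help, differed by -0.33 and Ly86, a partner of the receptor encoded by Cd180, by -0.58 in SM versus control (limma, adjusted p = 0.434 and 0.476).

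Among factors that attract or sustain B cells, Cxcl13, the chemokine that draws B cells into follicles, had the largest difference from control in both treated groups. It read 8.09, 8.65 and 8.39 in control, 7.37, 6.63, 7.38 and 7.81 in SM, and 7.50, 7.29 and 7.79 in SM + MSTF. Every treated array lay below every control. The log2 difference was -1.08 in SM versus control (SE 0.26, limma adjusted p = 0.0615), -0.85 between SM + MSTF and control (SE 0.28, limma adjusted p = 0.424) and 0.23 between SM + MSTF and SM (SE 0.26, limma adjusted p = 0.673). Tnfsf13, which encodes the plasma cell survival factor APRIL, read 8.62 to 8.83 in control, 9.08 to 9.43 in SM and 8.21 to 9.06 in SM + MSTF, with a log2 difference of 0.56 in SM versus control (SE 0.20, limma adjusted p = 0.196) and -0.55 between SM + MSTF and SM (limma, adjusted p = 0.240). Cxcl12, a chemokine for B cell precursors and plasma cells, differed by -0.34 in SM versus control (SE 0.12, limma adjusted p = 0.178). None of the 3 tested genes of this list was called in any comparison (0 by limma), where at most 2.41% of all tested probes were.

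**Figure D3:**
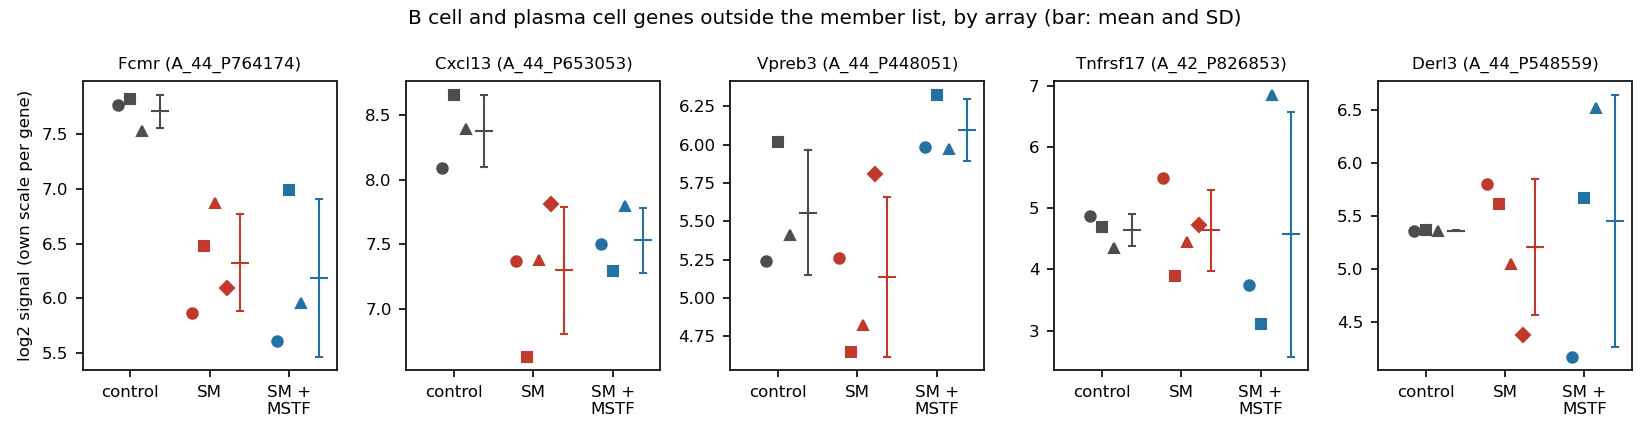
Log2 signal (vertical axis, own scale for each gene) of Fcmr, Cxcl13, Vpreb3, Tnfrsf17 and Derl3 on each array, by group, with the mean and SD of each group as a bar and the replicate numbers by symbol (circle, square, triangle and diamond for replicates 1 to 4). Every SM and SM + MSTF array lies below every control for Fcmr and Cxcl13, and SM + MSTF replicate 3 is the highest array for Tnfrsf17 (6.86) and Derl3 (6.52).

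Among receptor signalling genes 12 of 14 were fitted lower in SM versus control, beside 44.1% of all tested probes. Their median was -0.12, beside 0.032 over all probes, and 0 were called. Pik3cd, the leukocyte form of the lipid kinase below the receptor, read 4.92 to 5.23 in control, 4.24 to 4.99 in SM and 5.17 to 5.49 in SM + MSTF. Its log2 difference was -0.49 in SM versus control (SE 0.17, limma adjusted p = 0.184) and 0.80 between SM + MSTF and SM (SE 0.17, limma adjusted p = 0.0594). Dapp1, an adaptor that binds the lipid product of that kinase, differed by 0.18 on its brighter probe and -0.024 on its second, and Bank1, a B cell scaffold, by -0.73 on its brighter probe and -0.24 on its second, in SM versus control (limma, adjusted p = 0.445 and 0.528 for the brighter probes). On the brighter Bank1 probe control replicate 2 read 7.21, beside 5.12 and 5.24 in the other controls. Inpp5d, the opposing lipid phosphatase, had 3 tested probes that disagreed in SM + MSTF versus SM. A_43_P12016 differed by -0.53 (limma, adjusted p = 0.0348), under the 1.5-fold minimum, and the others by 0.28 and 0.22.

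Of the precursor genes, Vpreb3 read 5.24, 6.02 and 5.41 in control, 5.26, 4.64, 4.82 and 5.81 in SM, and 5.99, 6.33 and 5.97 in SM + MSTF. The SM + MSTF arrays all lay above the SM arrays, with a log2 difference of 0.96 (SE 0.28, unadjusted p = 0.00719, limma adjusted p = 0.157), and they overlapped the controls. Il7r, the interleukin 7 receptor chain that T cells also carry, had 2 tested probes. The brighter differed by 1.10 in SM + MSTF versus SM (SE 0.38, limma adjusted p = 0.216) and by -0.49 in SM versus control (SE 0.38, limma adjusted p = 0.580). The other differed by 0.58 and -0.43 (limma, adjusted p = 0.395 and 0.562). On both probes the SM + MSTF arrays overlapped the SM arrays.

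In the plasma cell and secretory list 5 of 10 tested genes were fitted lower in SM versus control, with a median of 0.066. Its genes of smallest p act in protein folding in the endoplasmic reticulum of every secretory cell, hepatocytes included. Pdia4, a disulfide isomerase, differed by 0.48, Hsp90b1, a chaperone of the reticulum, by 0.48, and Fkbp11, a prolyl isomerase, by 0.31 in SM versus control (limma, adjusted p = 0.202, 0.232 and 0.255). Against SM, the SM + MSTF values of the same genes differed by -0.43, -0.41 and -0.29 (limma, adjusted p = 0.278, 0.325 and 0.304). The second Hsp90b1 probe (A_44_P433334) gave 0.59 for the first comparison and -0.69 for the second (limma, adjusted p = 0.193 and 0.167). Herpud1, also of this list, went the other way on both tested probes. Its SM signal was fitted below control, by -0.35 and -0.27 (limma, adjusted p = 0.452 and 0.602). Every SM + MSTF array lay above every SM array, with a fitted difference of 0.72 on each probe (limma, adjusted p = 0.154 and 0.178).

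SM + MSTF replicate 3 was the highest array for some genes of antibody-secreting cells and not for others, and the genes named here were picked out after their values were seen. Of 17 probes of the plasma cell and secretory list, 5 were highest on it. These were the probes of Tnfrsf17 and Derl3, both Cd38 probes and 1 Prdm1 probe (A_44_P746333). Sdc1, the plasma cell surface proteoglycan that hepatocytes also carry, was highest on control replicate 3, and the Irf4 probe was not well above background. Hsp90b1, Pdia4, Fkbp11, Creld2, Sec11c and Ssr4 were highest on SM or control arrays, and Herpud1 on SM + MSTF replicate 2. Mzb1 and Pou2af1 are members and lie outside that list. On SM + MSTF replicate 3 Mzb1 read 7.01, beside 5.50 on the next highest array. Tnfrsf17, which encodes the plasma cell survival receptor BCMA and was not tested, read 6.86 beside 5.49 on the next. Derl3, part of the pathway that clears misfolded secretory proteins, read 6.52 beside 5.80, and the tested Pou2af1 probe read 7.97 beside 7.28. Cr2, a complement receptor of B cells, read 4.55 there beside 3.02 on the next on 1 of its 2 probes (A_44_P508573), and 2.16 there on the other (A_44_P508580). Of 77 probes of the members and B lineage lists, 3 (Mzb1, Tnfrsf17 and Cr2) were highest on this array by at least 1 and well above background there. Among the 50 of these probes that were tested, only Mzb1 (1 of 50) was highest there by at least 1. Over all tested probes this array was the highest for 13.7% and the lowest for 18.5%, the largest shares of the 10 arrays, and it was highest by at least 1 for 0.526%. It lay on the slide of the controls, and the part of slide, sample or cell content in these values was not tested.

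Genes of like pattern were found for 2 profiles, by the root mean square difference of centred log2 values over the 10 arrays, among 9086 genes. The first profile is the mean of Cd79b and Cd22, which themselves differed in pattern, and it holds neither Blnk nor Pou2af1. Nearest to it were Agtr1b, an angiotensin receptor (0.224), Or8w1b, an olfactory receptor (0.254), Rchy1, a ubiquitin ligase (0.257), Cox7c, a subunit of cytochrome c oxidase (0.261), and Shank1, a synaptic scaffold (0.284), beside a median of 0.594 over all genes. Agtr1b read 5.46 to 5.73 in control, 4.44 to 4.80 in SM and 4.84 to 5.72 in SM + MSTF. Nearest to Mzb1 were Sema6c (0.244), Ppfia2 (0.269), Sh2d4a (0.277), Slc44a4 (0.277) and Alms1 (0.301), beside a median of 0.692. Each of these was highest on SM + MSTF replicate 3. Alms1, a gene of the centrosome, read 9.26 there and 7.33 to 7.65 on the other arrays, and Slc44a4, a choline transporter-like gene, read 9.99 there and 7.73 to 8.56 elsewhere.

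Of the marker lists of other cells, the natural killer cell list had called genes. The T cell, plasmacytoid dendritic cell, Kupffer cell, MHC class II, leukocyte, erythroid and hepatocyte lists had 0 called by limma in each comparison. Of all tested probes, limma called 2.41% between SM and control and 1.26% between SM + MSTF and SM. Between SM + MSTF and control the share was 0%. In lists this short, 0 called lies near these shares and sets no list apart. Of 8 tested natural killer cell genes 8 were fitted lower in SM versus control. By limma 2 were called lower, Klrd1 (-1.22, SE 0.23, adjusted p = 0.0277) and Klrc2 (-0.92, SE 0.16, adjusted p = 0.0254). Klrd1 was called higher in SM + MSTF versus SM (1.15, SE 0.23, limma adjusted p = 0.0455). The Klrd1 probe was well above background on 3 of 3 control, 2 of 4 SM and 3 of 3 SM + MSTF arrays. Klrd1 thus entered the test only through the groups in which it was high, so a lower signal in SM was built into its selection. The summed intensity of the 9 matched natural killer cell genes was 1354 to 1634 in control, 732 to 1883 in SM and 1019 to 2272 in SM + MSTF, with Ncr1 not well above background on any array. MHC class II genes, which B cells share with macrophages and dendritic cells, had a median log2 difference of -0.67 in SM versus control with 0 of 5 called by limma, and their summed intensity was 11369 to 14216 in control, 6674 to 9755 in SM and 9098 to 14072 in SM + MSTF, so the SM arrays lay below the controls. Of genes of all leukocytes 7 of 8 were fitted lower in SM versus control, with a median of -0.23 and 0 called, and their summed intensity was 12725 to 15072 in control and 10119 to 15856 in SM. For T cell genes the median was -0.041, for plasmacytoid dendritic cell genes 0.050 and for hepatocyte genes -0.052. Of Kupffer cell and macrophage genes 11 of 11 were fitted lower in SM versus control (median -0.096), 11 of 11 higher between SM + MSTF and control (median 0.25) and 11 of 11 higher between SM + MSTF and SM (median 0.37). Erythroid genes were all fitted higher in SM versus control (6 of 6, median 0.75, 0 called by limma). The part of any of these in the Cd79b, Fcmr and Cxcl13 values was not tested.

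**Figure D4:**
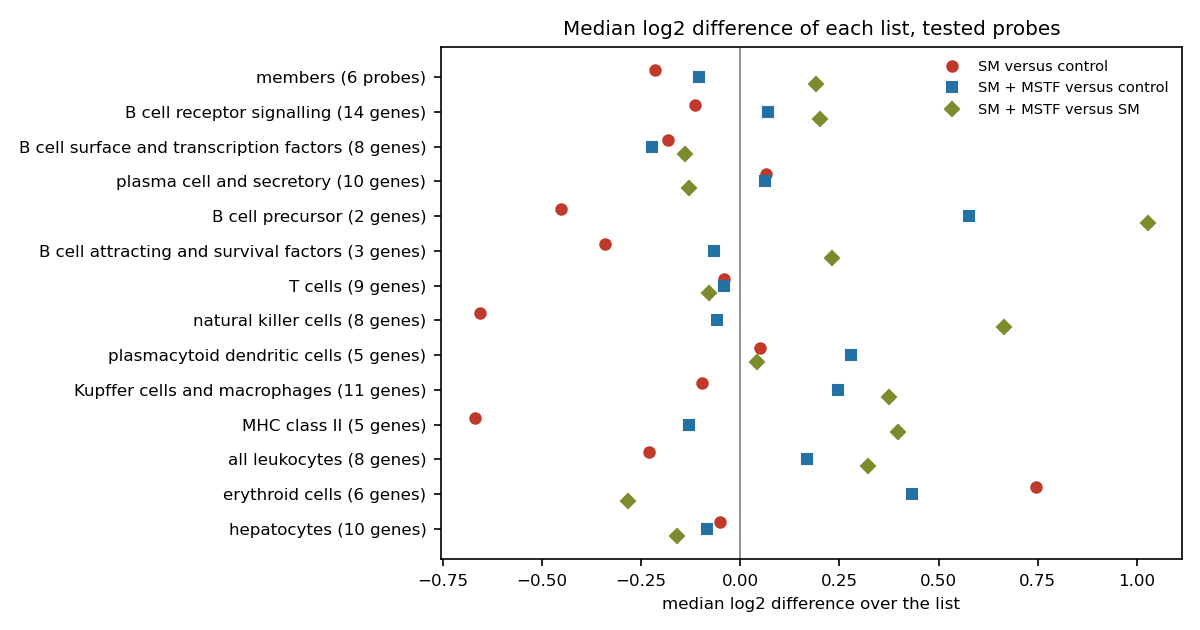
Median log2 difference (horizontal axis) over the tested members of each list (vertical axis, with the number tested) for SM against control (circle), SM + MSTF against control (square) and SM + MSTF against SM (diamond). The member list lies at -0.21, -0.11 and 0.19, and the natural killer cell list at -0.66, -0.060 and 0.67.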

How the data were processed

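Liver RNA of 10 rats was measured on one-colour Agilent arrays. The authors read spots with Feature Extraction 10.7 and deposited an intensity per spot, background-subtracted, with marks for spots well above background, saturated or not uniform. They normalized by quantile in GeneSpring and deposited log2 values per probe, used here as an alternative.

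Control spots and not-uniform spots (0 to 4 per array) were left out. The intensity was quantile normalized over 10 arrays, converted to log2 and averaged per probe (R 4.3.3, limma 3.58.1). A probe was tested where some group had it well above background throughout and each group had at least 2 values for it (22991 of 41012). Each array held 43379 spots. Through RefSeq accessions (GRCr8), 17512 probes were named. The array was designed on an older assembly, so no probe coordinates are given. All 3 groups entered 1 limma fit (lmFit, eBayes) with Benjamini-Hochberg adjustment. A probe was called at an adjusted p under 0.05 and at least 1.5-fold, the fold minimum of the methods. The procedure was tested on simulated data. The number of arrays limits the precision.

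Groups came from the sample labels. Members and gene lists were chosen with earlier results of these data known. Named are every member probe, called genes of the B lineage lists and the 3 tested genes per list with the smallest unadjusted p in SM versus control, 2 such genes of other marker lists (not all are printed), and the 5 genes nearest in pattern to each of the 2 member profiles. The probe of highest mean signal stood for a gene in list counts. Alternatives were 75th percentile scaling, the deposited log2 values, normexp correction (offset 50, on median signals), other filters on dim or not-uniform spots, the fitted groups, no fold minimum, calls at unadjusted p, the t-test of the methods, replicate and slide blocks, and each array left out.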

Additional observations from a re-analysis of the deposited data

Results flagged for a closer look

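Of 37 probes of members and named genes examined within the 4 SM arrays, 2 had 1 array far from the others, and chance alone marks about 1 in 20 such groups. Hsp90b1 (A_43_P15719) read 13.8 in SM replicate 3, above the 13.2 to 13.3 of the other SM arrays. Tnfsf13 (A_42_P773636) read 9.08 in SM replicate 4, below the 9.38 to 9.43 of the other SM arrays.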

How the results depend on the processing

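Across 24 settings, 746 values were recomputed, and 693 of them were classed as the same. A probe difference was the same if it kept its direction and side of the threshold, and a count if it was unchanged. A median was the same if it shifted by less than the median SD of the member probes, whatever its sign. The member median in SM versus control went from -0.21 to 0.018 with no filter on dim probes. In SM + MSTF versus control it went from -0.11 to 0.19 with the slide as a fixed block. Of the rest, 20 counts moved, 15 probe differences changed sign and 18 passed the threshold where the reported value did not. The count of member probes called in SM versus control, 0 as reported, was 1 with only the 2 groups compared in the fit, 1 by the methods' t-test with unadjusted p, 2 at unadjusted p by limma, and 0 to 1 with an array left out (1 without SM + MSTF replicate 2). In SM + MSTF versus control it was 1 with the slide as a fixed block (1 SM + MSTF array, replicate 3, against the controls on its slide, so no replicated test, and a fit that the comparisons with SM do not allow). For B lineage probes the count in SM versus control, 0 as reported, was 1 with normexp correction, with only the 2 groups in the fit and by the methods' t-test with unadjusted p, 2 at unadjusted p, and 0 to 1 with an array left out (1 without SM + MSTF replicate 1 or 2). In SM + MSTF versus control it was 1 at unadjusted p and by the methods' t-test with unadjusted p. In SM + MSTF versus SM it was 1 with no fold minimum, 10 at unadjusted p, 5 by the methods' t-test with unadjusted p, and 0 to 1 with an array left out (1 without SM replicate 4, SM + MSTF replicate 1 or 3).

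Blnk in SM + MSTF versus SM turned to -0.12 with 75th percentile scaling and ran from -0.25 to 0.27 with an array left out. Fcmr in the same comparison ran from -0.55 to 0.15 with an array left out. Pou2af1 there was 0.10 with normexp correction and -0.82 to 0.26 with an array left out. In SM + MSTF versus control Pou2af1 was 0.81 with the slide as a fixed block (SM + MSTF replicate 3 alone against the controls on its slide). Mzb1 with an array left out ran from -0.10 to 0.20 in SM versus control, -0.29 to 0.93 in SM + MSTF versus control and -0.31 to 0.91 in SM + MSTF versus SM. The causes were not tested beyond what each setting leaves out.

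Samples with the same replicate number did not deviate together (correlations of -0.0991 to 0.169 over 9 pairs, and -0.232 to 0.181 over 24 pairs of other numbers), so the numbers are taken as names only. With the replicate block 0 member probes were called in each comparison, 1 B lineage probe was called in SM + MSTF versus SM, and Mzb1 in SM versus control was -0.078. Blnk and Cd79b had no value where probes had to be well above background on all 10 arrays. Cd79b was well above background on 2 of 4 SM arrays, and its difference in SM versus control was -2.18 as reported and -0.64 with normexp correction.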
